A study of Mus musculus with 10 samples.

Results

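Oxidative phosphorylation is the last stage of cellular respiration, in which mitochondria turn the electrons of NADH and succinate into ATP. Complexes I and II feed electrons into coenzyme Q, complex III passes them to cytochrome c, complex IV hands them to oxygen, and complex V, the ATP synthase, uses the resulting proton gradient to make ATP. Most subunits are encoded in the nucleus and imported, while the mitochondrial genome encodes a few hydrophobic subunits of complexes I, III, IV and V, so each of these complexes is built from the products of both genomes. Complex II is entirely nuclear. Embryonic stem cells rely strongly on glycolysis but hold a complete respiratory chain.

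The members were taken by gene symbol from the count table: the Nduf, Sdh, Uqc, Cox4 to Cox8 and Atp5 families and the mitochondrial protein genes, with pseudogene and Gm names left out (1 gene). They numbered 107 of 33006 genes, 94 nuclear and 13 mitochondrial. By complex, the nuclear genes comprised 44 for complex I, 4 for complex II, 10 for complex III, 20 for complex IV and 16 for complex V, and the mitochondrial genes 7 for complex I, 1 for complex III, 3 for complex IV and 2 for complex V. Names follow the function of the protein: Ndufa4 and Ndufa4l2 were placed in complex IV, and Atp5sl with the complex I assembly factors. The nuclear genes held 83 structural subunits and 11 assembly or coupling factors.

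RNA was measured in 4 libraries of E14 mouse embryonic stem cells (an established line) whose NPM1, a nucleolar histone chaperone, carries an auxin-inducible degron (NPM1AID). All cells were grown with LIF and inhibitors of MEK1/2 and GSK3, arrested in G1 and released for 12 h, either without auxin (2 libraries) or with auxin (2 libraries), which directs the tagged protein to degradation. The alignment paths in the table's header name 1 clone, so the comparison describes that clone, and no sample of untagged cells with auxin was used here, so effects of auxin itself and of NPM1 loss cannot be told apart. The H3K27me3 maps used came from 1 sample each, ChIP-seq at 6 h without auxin and CUT&RUN of control cells at 12 h.

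The libraries held 13353446 to 16046290 counted fragments. Counting noise alone did not account for the spread between replicates, since chi-square over its degrees of freedom was 3.86 for the libraries without auxin and 11.1 for those with it. The labels do not state that replicates came from separate cultures, so p-values measure only the variation among these 4 libraries, and that may be technical. All 9 markers of embryonic stem cells were detected, with a summed level of 7313 to 7426 CPM (fragments as a scaled share of the TMM-adjusted library size) without auxin and 6888 to 7065 CPM with auxin. Of these 9 markers edgeR called 5 lower, among them Pou5f1 (−0.26) and Esrrb (−0.40), and 1 higher, Nanog (0.33), so pluripotency factors moved by as much as the respiratory genes below. The 8 fibroblast markers summed to 8.27 to 8.57 CPM without auxin and 11.3 to 11.7 CPM with auxin, and 1 of the 4 tested, Pdgfra, was higher. The 3 germ line markers summed to 35.0 to 35.9 CPM without auxin and 41.9 to 43.0 CPM with auxin, and 1, Dazl, was higher (0.38). The part of these markers in the results was not tested.

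With auxin, transcripts of nuclear subunits were slightly lower as a group, while those of the mitochondrial genome showed no call in either direction. Of 88 nuclear members tested with edgeR's quasi-likelihood test (Benjamini-Hochberg adjusted p below 0.05 over all 13522 genes tested), 32 fell, 1 rose and 55 did not pass. The median log2 fold change was −0.17, against 0.01 over all genes tested. Over all genes tested 14.5% were called lower and 13% higher. The called falls were small, from 10.4% to 19.4%. The count of falls dropped to 14 without no-auxin replicate 1, to 18 without no-auxin replicate 2 and to 20 in DESeq2, and the medians stayed between −0.15 and −0.18 in these settings. DESeq2, run on all 33006 genes, called 1448 lower, against 1964 of the 13522 genes tested in edgeR. Lower calls over all genes also became fewer when either no-auxin replicate was left out. In bulk RNA, fewer cells with a transcript and less of it per cell cannot be told apart. In 63 of the 88 nuclear members both auxin libraries lay below both libraries without auxin, against 31.8% of all genes tested.

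The nuclear members lie higher than most genes, with a median of 75.0 CPM against 24.1 CPM over all genes tested, and across all 13522 genes the fold change and the mean level were negatively related (Spearman's rho −0.31, across genes that share the same 4 libraries). Between the quartiles of the nuclear members' levels, 39.1 to 133 CPM, 20.3% of 3498 genes were called lower and their median log2 fold change was −0.05. Of the 44 nuclear members in that band 18 were called lower, with a median of −0.17. The upper 44 nuclear members by level held 23 calls and the lower 44 held 9, while their medians were close, −0.17 and −0.15. Standard errors were smaller for the abundant genes, with medians of 0.06 and 0.09.

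**Figure D1:**
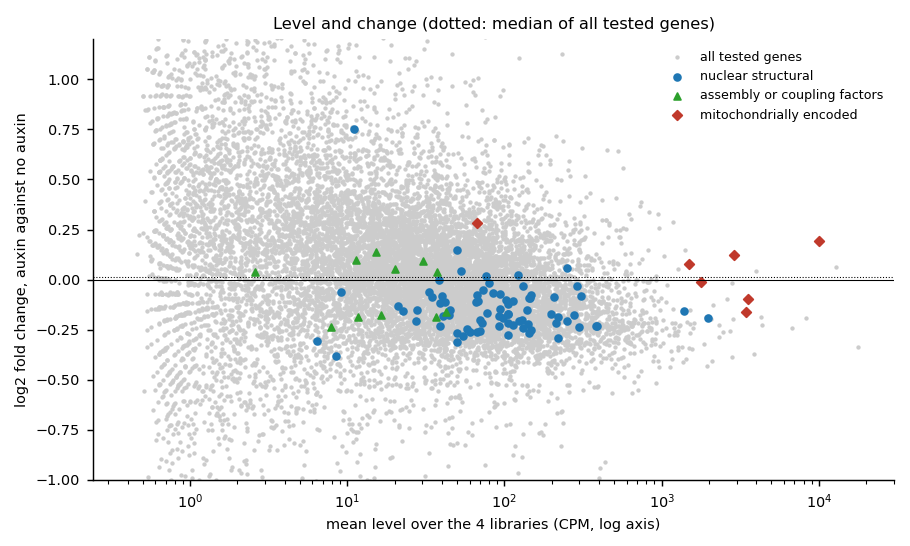
Log2 fold change with auxin (vertical axis) against mean level in CPM over the 4 libraries (horizontal log axis) for all 13522 genes tested (grey) and for the members in colour. The nuclear structural genes sit mostly below the dotted median of all genes, and Cox7a1 stands alone above them. 448 genes lie outside the plotted range.

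The size of these falls depends on how the libraries are scaled. TMM factors came to 0.963 and 0.972 for the libraries without auxin, and to 1.02 and 1.05 for those with it. With library totals and no factors, the median of all genes moved to 0.11 and that of the nuclear members to −0.07, and Atp5d was the only nuclear member still called lower. Relative to the median of all genes tested, the nuclear median was −0.18 under either scaling. A change of factors shifts all genes by about the same amount, so this value could not differ and does not test the scaling. Of all called genes 47.2% were higher with TMM factors and 73.5% were higher without factors. The falls below are therefore changes relative to the bulk of the transcriptome, and whether the amount per cell changed was not measured.

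Summed over the 94 nuclear genes, the level was 12581 and 12441 CPM without auxin and 11189 and 11200 CPM with auxin. Both auxin libraries lay below both others, and the means differed by 10.5%. With library totals the sums were 12110 and 12085 CPM without auxin and 11364 and 11752 CPM with auxin, a difference of 4.46% in the same direction. All 5 complexes had lower summed levels of their structural nuclear genes under TMM scaling. The difference was largest for complex V (5594 and 5528 CPM against 4869 and 4862 CPM, 12.5%) and smallest for complex IV (2352 and 2350 CPM against 2150 and 2200 CPM, 7.47%), and for complex IV the groups overlapped with library totals.

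**Figure D2:**
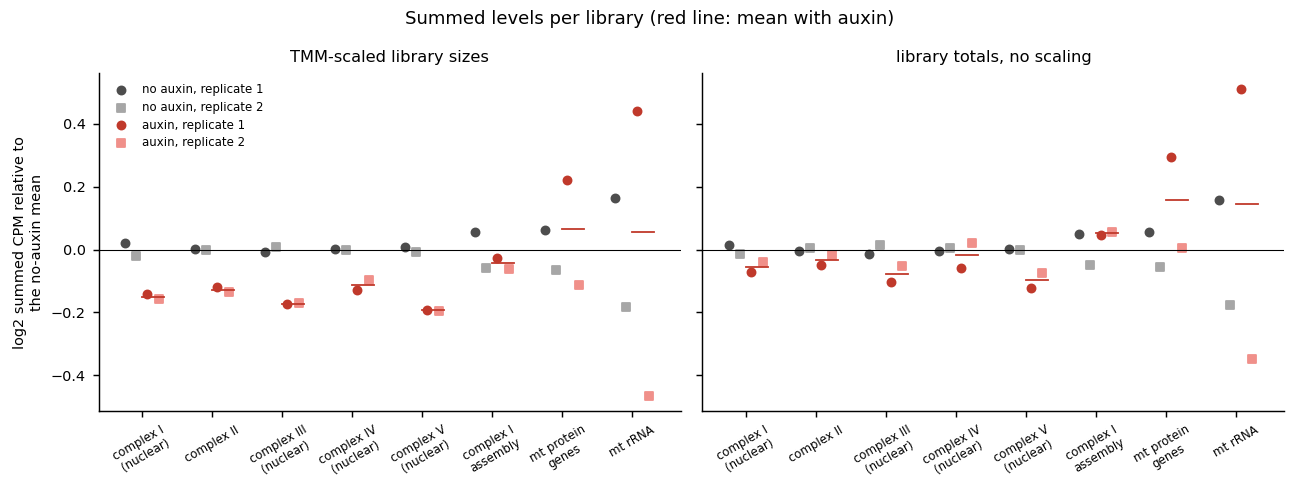
Log2 of the summed CPM of each set in each library relative to the mean without auxin, with TMM-scaled library sizes (left) and library totals (right). Points are libraries and the red line is the mean with auxin. On the left the 5 nuclear structural sets lie below 0 in both auxin libraries, and the groups of the complex I assembly factors overlap. The mitochondrial sets differ more between replicates than between groups.

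Complex V carried the largest share of calls. Of its 15 structural genes 12 fell, with a median log2 fold change of −0.22, and none rose. That is 80%, against 14.5% of all genes tested and 20.3% of those between 39.1 and 133 CPM. Without no-auxin replicate 1 the falls in complex V numbered 5. All 5 genes of the catalytic F1 head fell. Atp5b, the catalytic beta subunit and the most abundant nuclear member by fragments, stood at 2112 and 2117 CPM without auxin and 1861 and 1846 CPM with auxin. The groups did not overlap. On the log2 scale the change was −0.19 with an SE of 0.05 (edgeR adjusted p = 0.010). Its partner Atp5a1, the alpha subunit, stood at 1484 and 1453 CPM without auxin and 1315 and 1318 CPM with auxin (log2 fold change −0.16, SE 0.05, edgeR adjusted p = 0.025). The alpha and beta subunits thus moved by similar amounts, each far from overlap.

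Atp5d, the delta subunit of the central stalk, had the smallest adjusted p of the members that fell. It stood at 246 and 233 CPM without auxin and 194 and 198 CPM with auxin, and fell by 18.2% (log2 fold change −0.29, SE 0.05, edgeR adjusted p = 0.0021). It was called lower in all 11 alternative settings. Atp5e, the epsilon subunit that sits beside it, went from 71.1 and 75.6 CPM to 58.7 and 63.5 CPM (log2 fold change −0.26, edgeR adjusted p = 0.019). Atp5c1, the gamma subunit that forms the rotating shaft, fell by 0.19 on the log2 scale. Of the 10 genes of the membrane part and the peripheral stalk 7 fell. Among these, Atp5j2 went from 159 and 154 CPM to 127 and 132 CPM (−0.27, edgeR adjusted p = 0.0046). Atp5k went from 54.8 and 55.0 CPM to 41.9 and 48.9 CPM (−0.27, edgeR adjusted p = 0.036). Under DESeq2 Atp5k did not pass (DESeq2 adjusted p = 0.085). Atp5l (−0.31, SE 0.17), Atp5h (−0.19, SE 0.07) and Atp5g2 (−0.11, SE 0.13) did not pass. Atp5s, a coupling factor outside the enzyme, was low at 2.53 CPM without auxin and had the widest standard error of the members, 0.29.

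In complex I, the NADH dehydrogenase, 12 of 36 structural genes fell (33.3%, against 14.5% of all genes tested). None rose, and the median was −0.16. The falls numbered 3 without no-auxin replicate 1, 6 without no-auxin replicate 2 and 5 in DESeq2. The 7 core subunits, which carry the flavin and the iron-sulfur clusters, held 5 of these falls. Ndufv1, the flavin-bearing subunit that accepts electrons from NADH, stood at 142 and 140 CPM without auxin and 120 and 119 CPM with auxin (log2 fold change −0.24, SE 0.06, edgeR adjusted p = 0.0075). The groups were well separated. Ndufs8 and Ndufs7, iron-sulfur subunits on the path to coenzyme Q, fell by 0.28 and 0.26 on the log2 scale. Ndufs1 fell by 0.21. Ndufs3 (−0.18, edgeR adjusted p = 0.11) did not pass, and Ndufv2 was at 121 and 122 CPM without auxin and 126 and 120 CPM with auxin, with overlapping groups.

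The 29 accessory subunits of complex I, which surround the core and stabilise it, held 7 falls, with a median of −0.15. That is 24.1%, against 14.5% of all genes tested and 20.3% of those between 39.1 and 133 CPM. Ndufb6 fell most, from 55.6 and 55.3 CPM to 43.5 and 45.8 CPM (−0.31 ± 0.07 SE on the log2 scale, edgeR adjusted p = 0.0086). Ndufv3 fell by 0.25 on the log2 scale, and Ndufa8 by 0.23 (edgeR adjusted p = 0.0497, just inside the threshold). Ndufb4 had the lowest fold change of all members, −0.38, but at 9.76 and 9.36 CPM against 7.89 and 6.83 CPM its standard error was 0.15 and it did not pass (edgeR adjusted p = 0.083). At the other end, Ndufa6 stood at 47.8 and 47.3 CPM without auxin and 55.6 and 49.8 CPM with auxin (0.15, edgeR adjusted p = 0.20).

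Of the 4 genes of complex II, the succinate dehydrogenase, 2 fell (50%, against 14.5% of all genes tested). Both encode membrane anchors that hold the heme and the coenzyme Q site. Sdhd stood at 121 and 123 CPM without auxin and 103 and 105 CPM with auxin (log2 fold change −0.23, SE 0.06, edgeR adjusted p = 0.012). Sdhc fell by 0.17 (edgeR adjusted p = 0.0494), just inside the threshold. The catalytic flavoprotein Sdha (−0.08, SE 0.05) and the iron-sulfur protein Sdhb (−0.10, SE 0.07) did not pass. All 4 genes had both auxin libraries below both others, as did 31.8% of all genes tested. Leaving out any 1 library gave 0 or 1 falls in complex II, 0 without no-auxin replicate 2. Whether anchors and catalytic subunits differed was not tested.

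In complex III 4 of 8 structural genes fell and none rose, and 1 fell without no-auxin replicate 2, 2 without auxin replicate 1 and 2 in DESeq2. In the main fit that is 50%, against 14.5% of all genes tested. Uqcrc1, a core protein of the complex, stood at 421 and 412 CPM without auxin and 349 and 359 CPM with auxin. Its groups did not overlap (log2 fold change −0.23, SE 0.05, edgeR adjusted p = 0.0040). Uqcrq fell by 0.28 on the log2 scale and Uqcr11 by 0.26, both small membrane subunits. Uqcrfs1, the Rieske iron-sulfur protein, fell by 0.18 (edgeR adjusted p = 0.041). Uqcrc2 (−0.09) did not pass. Cyc1, the cytochrome c1 subunit that the name rule leaves out, went from 226 and 222 CPM to 182 and 190 CPM (−0.27, SE 0.05, edgeR adjusted p = 0.0030).

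Complex IV, the cytochrome c oxidase, had the fewest falls for its size. Of 14 nuclear genes tested 2 fell (14.3%) and 1 rose (7.14%), and the median was −0.09. The shares over all genes tested were 14.5% lower and 13% higher, and 20.3% lower between 39.1 and 133 CPM. Cox8a stood at 325 and 323 CPM without auxin and 271 and 280 CPM with auxin (log2 fold change −0.24, SE 0.05, edgeR adjusted p = 0.0042). Cox4i1, which contacts the mitochondrially encoded core, went from 405 and 423 CPM to 338 and 367 CPM (−0.23, SE 0.05, edgeR adjusted p = 0.0082). Neither pair of groups overlapped. Cox5b (−0.09), Cox6c (−0.12) and Cox7c (−0.08) did not pass, and Cox5a was at 248 and 244 CPM without auxin and 251 and 259 CPM with auxin (0.06). Whether complex IV differed from complex V was not tested.

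Assembly and coupling factors among the members showed no call, while 14.5% of all genes tested were called lower and 13% higher. None of the 11 passed in edgeR, their median was 0.04 and 1 had an unadjusted p below 0.05. DESeq2 made no call among them either. These genes lie lower than the subunits, with a median of 17.7 TPM (a share of all transcripts that corrects for gene length) without auxin, and the median standard error was 0.12, against 0.07 for the structural subunits, so the test was less sensitive for them. Whether they differed from the subunits was not tested.

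**Figure D3:**
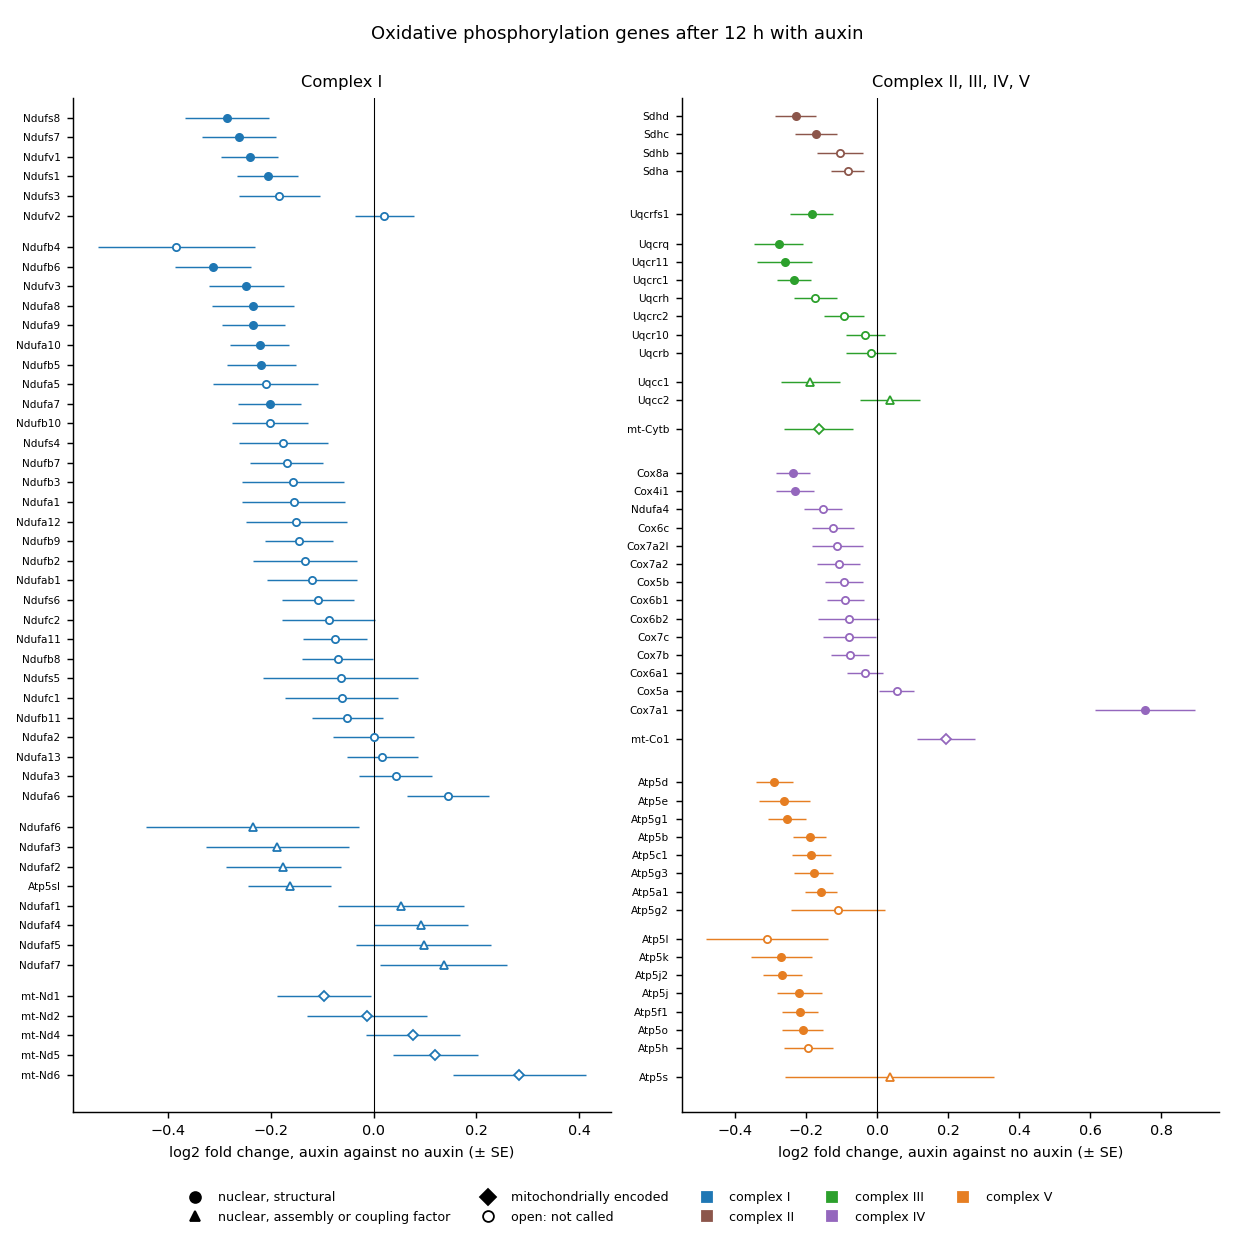
Log2 fold change with auxin (± SE) of the members tested, 1 left out, with complex I on the left and complexes II to V on the right. Filled symbols passed the test, and within a complex the rows run from core to accessory subunits, assembly factors (triangles) and mitochondrial genes (diamonds). Most filled points lie between −0.31 and −0.16, and Cox7a1 is the only filled point above 0.

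Cox7a1 was the only member that rose. It encodes the heart and skeletal muscle form of a small complex IV subunit whose other forms are Cox7a2, found in most tissues, and Cox7a2l, which helps join complexes III and IV. Without auxin 117 and 121 fragments were counted, and with auxin 173 and 250, or 8.22 and 8.20 CPM against 12.8 and 14.8 CPM. The groups did not overlap, and the level was 1.69-fold higher (log2 fold change 0.75, SE 0.14, edgeR adjusted p = 0.0025). It was called in all 11 alternative settings, with log2 fold changes of 0.64 to 0.85. Its share of the summed TPM of the trio was 9.32% and 9.56% without auxin and 14.7% and 17.0% with auxin. Cox7a2 (−0.11) and Cox7a2l (−0.11) did not pass. The 6 heart and skeletal muscle markers summed to 2.53 and 3.32 CPM without auxin and 2.29 and 3.86 CPM with auxin, with overlapping groups, and neither of the 2 tested was called. Of these, Tnni3, a heart troponin, stood at 0.49 and 0.61 CPM without auxin and 0.96 and 1.54 CPM with auxin, without overlap (edgeR adjusted p = 0.057). The part of such cells in the Cox7a1 result was not tested.

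Of the other tissue-specific forms 6 were too low to test, and Cox6b2 was expressed. Cox8b had 0 counts in all 4 libraries, and Cox6a2 had 0 in 3 libraries and 1 count in auxin replicate 2. Cox4i2, a lung form, made up 0.28% of the Cox4i pair without auxin and 0.27% with auxin. Ndufa4l2, Cox7b2 and Cox8c each took on average 0.21% or less of their family. Cox6b2, best known from testis, made up 7.99% and 8.20% of the Cox6b pair without auxin and 7.57% and 8.70% with auxin. The c ring of the ATP synthase has 3 genes that encode the same mature protein, and Atp5g3 gave 50.9%, Atp5g2 36.9% and Atp5g1 12.2% of their TPM without auxin. By fragments, with no correction for length, Atp5g1 took 32.3% and 31.8% and Atp5g2 9.03% and 8.38%, so the order of these 2 genes rests on the annotated lengths, 4912 bases for Atp5g1 and 441 for Atp5g2. Atp5g1 (−0.25) and Atp5g3 (−0.18) fell.

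**Figure D4:**
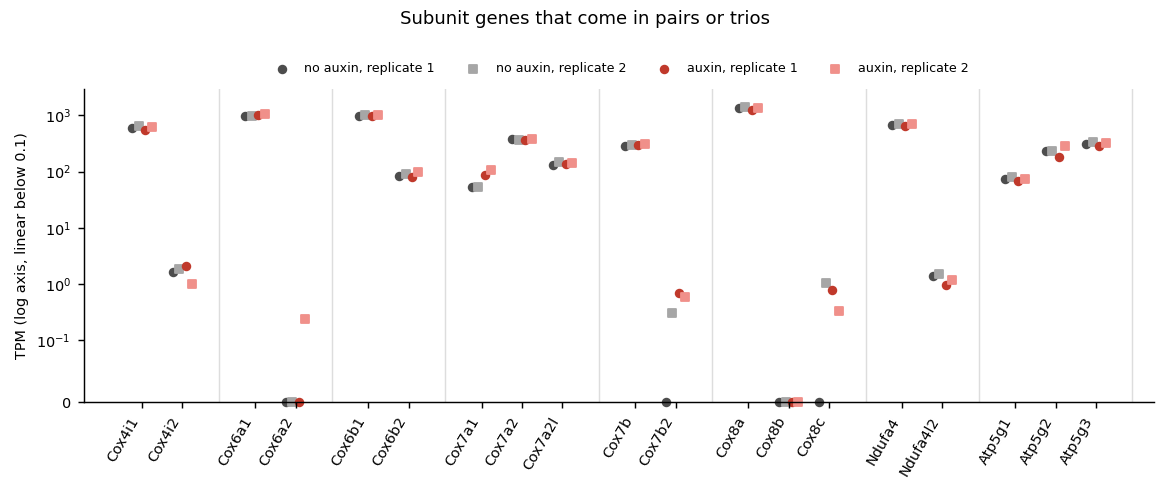
Level in TPM (log axis, linear below 0.1) of subunit genes that come in pairs or trios, with 1 point per library. Cox7a1 is the only gene of these families called higher with auxin (red), and Cox6a2, Cox7b2, Cox8b and Cox8c lie at or near 0.

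Compared per length, complex IV had the highest nuclear levels. Without auxin the median over tested structural genes was 494 TPM for complex IV, 232 TPM for complex V, 213 TPM for complex III, 151 TPM for complex II and 113 TPM for complex I. The ranges overlapped widely, from 9.14 TPM (Ndufb2) to 355 TPM (Ndufb9) within complex I alone. Cox8a was the highest nuclear member at 1400 ± 28.3 TPM (SD, n = 2), followed by Atp5b at 1174 ± 30.9 TPM and Atp5a1 at 1102 ± 10.8 TPM. Cox6b1 (991 ± 40.5 TPM) and Cox6a1 (977 ± 15.2 TPM) did not differ beyond their spread. Lengths are those of all annotated exons merged, so genes with long minor transcripts are understated.

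The promoters of nuclear members were compared for short sequence matches to factors known to act on respiratory genes. NRF1, GABP (an ETS factor), the estrogen-related receptors (ERR) and YY1 have each been tied to the transcription of respiratory subunits. The letters searched, on both strands, were GCGCATGCG for NRF1, CCGGAAG for GABP, TCAAGGTCA for ERR and AAGATGGCG for YY1, in windows of 250 bases before to 50 bases after the RefSeq start. RefSeq (GRCm38.p6) gave 84 promoters for 78 of the 94 nuclear members.

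At least 1 motif was present in 38.1% of member promoters, against 11.7% of 32851 promoters of this length and 21.9% of those of genes tested. NRF1 matched in 11.9% of member promoters (3.57% for genes tested), YY1 in 10.7% (2.86%), GABP in 20.2% (16.7%) and ERR in 2.38% (0.277%). Among members that fell 46.7% of 30 promoters held a motif, and among those not called 35.3% of 51 did. A match is a description of the letters and shows neither binding nor a cause.

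The following stretches are on the strand of the gene, and capitals mark the motif matches in them. Those of 110 bases end at the base before the RefSeq start. The stretches were chosen for a match within 110 bases of the start in a member that fell. Cox7a1, the member that rose, is printed beside them. Members that fell and held no match, among them Atp5b, Atp5d, Atp5g1 and Ndufv1, are not shown. Where the gene's exons in the count table cover more than 10 of the 110 bases, only 30 bases around the match are given, which can end farther from the start.
Ndufa8, complex I, chr2:36049339-36049368, minus strand, NRF1: gcgcttgcgcgtcgctggagaCGCATGCGC
Sdhd, complex II, chr9:50603850-50603959, minus strand, GABP: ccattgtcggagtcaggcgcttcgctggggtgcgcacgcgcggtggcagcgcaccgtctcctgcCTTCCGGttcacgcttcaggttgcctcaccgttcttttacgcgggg
Uqcr11, complex III, chr10:80406822-80406931, minus strand, GABP: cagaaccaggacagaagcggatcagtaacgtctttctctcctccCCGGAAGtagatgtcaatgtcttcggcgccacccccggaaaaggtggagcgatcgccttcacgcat
Atp5e, complex V, chr2:174464102-174464211, minus strand, GABP: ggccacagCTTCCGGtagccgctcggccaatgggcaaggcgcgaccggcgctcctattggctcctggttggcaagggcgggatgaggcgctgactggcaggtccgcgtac
Atp5g3, complex V, chr2:73911327-73911436, minus strand, ERR: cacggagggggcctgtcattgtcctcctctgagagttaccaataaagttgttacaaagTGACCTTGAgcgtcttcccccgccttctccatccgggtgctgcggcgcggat
Atp5j, complex V, chr16:84835046-84835075, minus strand, YY1: aaagtgtaggaAAGATGGCGgagtcttagc
Atp5k, complex V, chr5:108434431-108434460, minus strand, NRF1: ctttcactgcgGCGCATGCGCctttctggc
Cox7a1, complex IV, chr7:30184061-30184170, plus strand, no match: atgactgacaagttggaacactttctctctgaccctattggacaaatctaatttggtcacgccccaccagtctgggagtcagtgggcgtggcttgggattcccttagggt

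In Atp5k the NRF1 letters read on both strands over the same bases, from 50 to 41 bases before the start, and in Ndufa8 they end at the base before it. Atp5j also held a GABP match from 61 to 55 bases before the start, outside the bases given. The 300-base window of Cox7a1 held 7 CpG dinucleotides, the same as the median of all promoters, whereas the median was 20 both for member promoters and for those of all genes tested. Members that were not called also had few, among them Cox7b (5), Uqcc1 (7) and Ndufc2 (8).

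H3K27me3, a repressive histone mark, was not found at the 5′ ends of the tested nuclear members in control cells. A peak within 1 kb of the annotated 5′ end was present in 0 of 88 tested nuclear members in either peak list, against 10.8% of 13501 tested genes. The tested nuclear members lie higher than most genes (median 75.0 CPM against 24.1 CPM), and no share was taken for genes of like level. Of the 6 nuclear members too low to test 3 had a peak in 1 of the lists, against 16.4% of all 32931 genes with a placed 5′ end. Cox6a2 had a ChIP-seq peak (chr7:128205575-128205992), and Cox4i2 (chr2:152753039-152754039) and Cox8c (chr12:102900023-102900404) had CUT&RUN peaks. The −log10 values of q in the peak lists were 2.03 for Cox6a2, 1.41 for Cox4i2 and 1.26 for Cox8c. No member had a peak in both lists within 1 kb, and within 2.5 kb Atp5k was the 1 tested member with a peak, in the ChIP-seq list. With 1 sample per assay and no depth in the peak lists, a missing peak sets no upper limit on the mark.

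No change in either direction was called among the mitochondrially encoded genes, and their groups overlapped. Of the 13 genes 7 passed the expression filter, and edgeR called 0 of them, with 1 at an unadjusted p below 0.05. DESeq2 also called none, while edgeR with a minimum of 1 read in place of the filter called 3 higher and 1 lower. Their median log2 fold change was 0.08, with 3 below and 4 above 0, and in all 7 the CPM ranges of the groups overlapped. Summed over the 13 genes the level was 23735 and 21766 CPM without auxin and 26540 and 21034 CPM with auxin. The auxin libraries lay on either side of the others.

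In all 7 genes replicate 1 was higher than replicate 2 in both groups. For mt-Nd2 replicate 1 exceeded replicate 2 by 0.24 without auxin and by 0.45 with auxin on the log2 scale. The mitochondrial rRNAs, captured in part by this poly(A) selection, varied even more, with 18397 and 14461 CPM without auxin and 22286 and 11898 CPM with auxin. Fragments of mitochondrial members per fragment of nuclear members came to 1.89 and 1.75 without auxin, against 2.37 and 1.88 with it, with overlapping groups.

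Auxin replicate 1 or 2 alone turned the result. Without auxin replicate 2 edgeR called 5 of the mitochondrial genes higher, and without auxin replicate 1 it called 3 lower (mt-Nd1, mt-Nd2 and mt-Cytb). The summed level was 0.06 above that without auxin on the log2 scale with all libraries, 0.22 above without auxin replicate 2, and −0.11 without auxin replicate 1. These libraries therefore give no direction for the mitochondrial transcripts as a whole.

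The balance among the mitochondrial mRNAs, which no library scaling touches, was steadier. mt-Co1, the catalytic subunit of complex IV, made up 40.8% and 41.8% of the fragments of the 7 genes without auxin and 44.8% and 45.7% with auxin. mt-Cytb, cytochrome b of complex III, made up 16.1% and 15.8% without auxin and 13.8% and 13.4% with auxin, and mt-Nd1 made up 16.2% and 15.9% against 14.4% and 14.3%. Fragments of mt-Co1 per fragment of mt-Cytb came to 2.54 and 2.64 without auxin, against 3.25 and 3.40 with it. mt-Nd5 and mt-Nd6 also had both auxin shares above both others, whereas the shares of mt-Nd2 and mt-Nd4 overlapped. This comparison was chosen after the values were seen, shares that sum to a whole are not independent, and with 2 libraries a side an exact permutation test cannot go below p = 0.333. The shares therefore describe these 4 libraries only. Whether the transcripts changed unequally was not tested, and shares do not tell which transcript moved.

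Per length, mt-Co1 led the members that passed the expression filter at 14296 ± 295 TPM without auxin (SD, n = 2). It was followed by mt-Nd1 (8977 ± 465 TPM) and mt-Cytb (7469 ± 364 TPM). mt-Nd2 (4061 ± 379 TPM), mt-Nd5 (3543 ± 67.6 TPM) and mt-Nd4 (2495 ± 66.0 TPM) followed. mt-Nd6, the only one of these genes on the other strand, was at 273 ± 57.6 TPM.

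A contiguous block of the mitochondrial genome was almost uncounted. mt-Co2, mt-Atp8, mt-Atp6, mt-Co3, mt-Nd3 and mt-Nd4l, from position 7013 to 10173, had 0 to 15 fragments per library, while mt-Co1 on one side (5328 to 6872) had 134110 to 161680 and mt-Nd4 on the other (10167 to 11544) had 20788 to 23521. Per the table's header, a fragment that aligned to several places was not counted, and the mouse nuclear genome carries a near-identical copy of a piece of the mitochondrial genome on chromosome 1. In the table, Gm10222 on chromosome 1 (24612404 to 24612700) has 297 bases, the same length as mt-Nd4l, and had 0 to 5 fragments. The part of this copy in the low counts was not tested. No level or change is read from these 6 genes here.

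**Figure D5:**
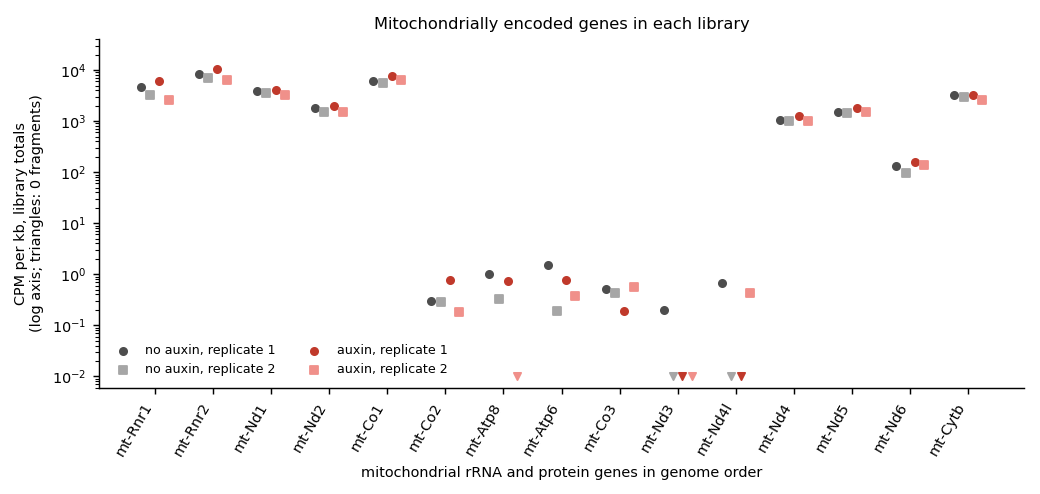
CPM per kb of gene, on library totals (log axis), of the mitochondrial rRNA and protein genes in genome order, with 1 point per library and triangles for 0 fragments. The 6 genes from mt-Co2 to mt-Nd4l lie orders of magnitude below both neighbours in every library, and in most genes replicate 1 lies above replicate 2.

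Genes that support the respiratory chain were read from the same fit, as 6 lists with 94 genes. Called genes in these lists were all lower, 18 in number, and some of the 94 genes were too low to test. Over all genes tested 14.5% were called lower, and 20.3% of those between 39.1 and 133 CPM. Assembly factors outside the name rule had 0 calls among 32 tested in edgeR (5 at an unadjusted p below 0.05), and DESeq2 made none, with a median of −0.04. DESeq2 called 11 genes lower over all 6 lists.

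Of 19 genes for mitochondrial DNA and RNA 6 fell. Tbrg4, a FASTK-family protein that acts on mitochondrial RNA, stood at 233 and 224 CPM without auxin and 181 and 180 CPM with auxin (log2 fold change −0.34, SE 0.05, edgeR adjusted p = 0.00072). Supv3l1, the helicase of the mitochondrial RNA degradosome, fell by 0.35. Lrpprc, which stabilises mitochondrial mRNAs, fell by 0.21 (edgeR adjusted p = 0.010). Tfam, which packages mitochondrial DNA and is needed for its transcription, stood at 75.3 and 68.5 CPM without auxin and 62.5 and 60.5 CPM with auxin (−0.23, SE 0.07, edgeR adjusted p = 0.037).

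Of 10 regulators of nuclear respiratory genes tested 3 fell: Pprc1, a coactivator related to PGC-1 (507 and 484 CPM against 405 and 387 CPM, −0.32, edgeR adjusted p = 0.00090), Sp1 (−0.30) and Gabpb2 (−0.19, edgeR adjusted p = 0.0496, just inside the threshold). Nrf1 (−0.16, edgeR adjusted p = 0.11), Gabpa (−0.07), Esrra (0.15) and Ppargc1b (−0.37, edgeR adjusted p = 0.16) did not pass, and Ppargc1a was too low to test. Transcript levels of a factor say nothing of its activity.

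In the tricarboxylic acid cycle, which supplies NADH and succinate, 6 of 16 genes fell. Idh3g, a subunit of the NAD-dependent isocitrate dehydrogenase, went from 153 and 161 CPM to 127 and 131 CPM (−0.28, edgeR adjusted p = 0.0037). Pdha1 of the pyruvate dehydrogenase (−0.24) and Suclg1 of the succinyl-CoA synthetase (−0.29) also fell. In coenzyme Q synthesis and the mobile carriers 2 of 13 fell, Coq4 (−0.42, edgeR adjusted p = 0.017) and Coq6 (−0.35), while Cycs, cytochrome c itself, stood at 49.1 and 45.8 CPM without auxin and 43.2 and 45.1 CPM with auxin (−0.10). Atpif1, the inhibitor of the ATP synthase, did not pass (−0.10). These lists were chosen with earlier results known, and their counts are descriptions read beside the 14.5% of all genes called lower.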

How the data were processed

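The deposited table holds raw counts of fragments per gene, made by the authors with featureCounts 1.6.3 on exons and the reverse strand, with mm10 gene names, per the file headers. STAR 2.6.1d, Bowtie2 2.4.1 and MACS2 2.1.1 are named in the submitters' processing notes. Per the deposited broad peak lists, each peak has a score, a fold enrichment ratio and −log10 values of p and q, given by the authors from single samples.

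All 4 RNA libraries were fitted in edgeR 4.0.16 (R 4.3.3) with TMM factors, the default expression filter, a quasi-likelihood F test, two-sided, and Benjamini-Hochberg adjustment at 0.05 over 13522 genes, auxin against no auxin. Of 107 members 95 passed the filter. The 12 others were Cox4i2, Cox6a2, Cox7b2, Cox8b, Cox8c, Ndufa4l2 and the 6 mitochondrial genes from mt-Co2 to mt-Nd4l. Standard errors were the size of the log2 fold change divided by the root of F. The fit was tested on simulated data. TPM used the table's length column. Members, lists, complex assignments and the rule for named genes (core subunits, the 3 largest called changes per complex and direction, paralogues, mitochondrial genes, and up to 3 called genes per list) were chosen with earlier results of these data known. Genes outside that rule (Ndufa6, Ndufa8, Ndufb2, Ndufb9, Ndufv3, Atp5c1, Atp5e, Atp5h, Atp5j, Atp5s, Atpif1, Cycs and the markers Pdgfra, Pou5f1, Esrrb, Nanog, Dazl and Tnni3) were named after their values were seen. Settings tried were RLE and upper-quartile factors, library totals, library sizes without mitochondrial genes, a minimum of 1 read, DESeq2 1.42.0, leaving out each library and a replicate block. Of the alternatives, library totals without factors was added after the data were seen. The values of 1 core member are not reported here. Chromatin samples other than the 2 peak lists were not analysed here. Precision of low genes is limited by 2 libraries per group.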

Additional observations from a re-analysis of the deposited data

How the results depend on the processing

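The direction of the nuclear median held in all 11 settings, and the number of calls did not. Of the 32 members called lower 8 were called in at least 10 settings and 6 in fewer than 6. With library totals and no factors 1 member was lower and 4 higher (mitochondrial 2 higher), with 0 lower in complexes I, II, III and IV, 1 in complex V, and 9 lower and 2 higher in the supporting lists, and the summed nuclear change was −0.066 on the log2 scale. DESeq2 gave 20 lower (complex I 5, II 1, III 2, supporting lists 11). Upper-quartile factors gave 1 lower in complex II and 1 higher in the lists. A minimum of 1 read gave 4 members higher (mitochondrial 3 higher, 1 lower), 1 lower in complex II and 1 higher in the lists.

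Leaving out 1 library gave 14 to 28 members lower and 1 to 6 higher, 3 to 10 lower in complex I, 0 to 1 in complex II, 1 to 3 in complex III and 5 to 10 in complex V. The lowest counts came without no-auxin replicate 1 (14 members, complex V 5) and without no-auxin replicate 2 (complex II 0, complex III 1). Mitochondrial genes gave 0 to 3 lower and 0 to 5 higher, their summed change ran from −0.11 to 0.22, and mt-Nd2 ran from −0.26 (without auxin replicate 1) to 0.20 (without auxin replicate 2, edgeR adjusted p = 0.0021). The lists gave 8 to 20 lower and 0 to 1 higher. Where 1 library was left in a group, its spread was taken from the other group. With q limited to a −log10 of at least 2, 1 member kept a peak, and with a window of 2.5 kb 5 had one.

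The replicate numbers pair nothing known in the labels (correlation of deviations 0.227). With the replicate block 52 members were lower (complex I 21, III 7, IV 6) and 5 higher (mitochondrial 2 lower, 3 higher), and the lists had 30 lower and 3 higher. Over all genes tested 23.5% were lower in that setting, against 14.5% in the main fit.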
